A study of Rattus norvegicus with 16 samples.

Results

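Voltage-gated channels open when the membrane depolarises and let calcium or sodium ions into excitable cells. The genes described here encode the voltage-gated calcium channels with their auxiliary subunits, the voltage-gated sodium channels with theirs, and the hyperpolarization-activated HCN channels, measured in adrenal medulla lesions of p27Kip1 mutant rats. The members were the genes whose symbol in the array's platform annotation began with Cacna1, Cacna2d, Cacnb or Cacng, was Scn with a number and a closing a or b, or was one of the Hcn genes, and that had a probe set naming no other gene. This gave 39 genes with 55 probe sets, out of 14217 genes and 31042 probe sets tested. Each gene was read from the probe set with the highest mean over the 16 arrays. By class, 24 encode calcium channel subunits, 12 encode sodium channel subunits and 3 encode HCN channels.

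The lesions were 8 medullary hyperplasias taken at 2 months of age and 4 pheochromocytomas, tumours that arise from chromaffin cells, of which 3 were taken at 8 months and 1 at 9 months. All 12 came from rats that carry the p27Kip1 (Cdknb1, as the labels spell it) mutation of the MENX syndrome of multiple endocrine tumours, on a Sprague–Dawley white eye/Wistar–Kyoto background. Wild-type medulla of the same background was measured as pools: 2 young pools at 2 months, 1 of 2 animals and 1 of 3, and 2 old pools of 2 animals each, 1 at 10 months and 1 of animals at 12 and 17 months. The old pools were therefore older than the rats with tumours, although the series text calls the controls age-matched. Values are log2 intensities, normalised by the authors, so a difference of 1 is a doubling.

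In chromaffin cells, depolarisation opens sodium channels and then calcium channels, and the calcium that enters triggers the release of adrenaline and noradrenaline. Each channel is built around a large pore-forming alpha subunit. Calcium channel beta subunits carry the pore to the membrane, alpha2delta subunits raise its surface density, and sodium channel beta subunits change the gating and placement of the sodium pore. HCN channels open on hyperpolarization and pass a pacemaking current.

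The arrays were alike in range, with values of 2.41 to 14.5 and array medians of 6.51 to 6.61. Chromaffin markers were bright on all 16 arrays, their mean over the 10 measured genes lying between 12.4 and 13.3. The lowest tumour mean, 12.852, lay just above the highest old pool, 12.845, while hyperplasias and young pools overlapped. Phox2a rose by 1.02 in hyperplasia, and Phox2a, Ddc and Slc18a1 by 0.81, 0.86 and 0.73 in pheochromocytoma (limma, adjusted p under 0.05). The others did not pass. Among these Pnmt was lower in both lesions, by -0.636 in hyperplasia and -0.328 in pheochromocytoma. Slc18a2 differed by -0.305 in hyperplasia and by 1.415 in pheochromocytoma. The median difference of the list was 0.02 in hyperplasia and 0.18 in pheochromocytoma. Adrenal cortex markers were present as well: their mean over 10 of 14 listed genes was 10.2 to 11.1 in hyperplasias and 11.4 to 11.6 in young pools, and 10.2 to 11.5 in pheochromocytomas and 11.8 to 12.2 in old pools. The lesions thus lay below their own pools without overlap, and 3 of the 10 cortex genes fell in hyperplasia and 8 of 10 in pheochromocytoma (limma, adjusted p under 0.05). Some markers of other cells moved with the lesions too. Of the 7 ganglion neuron markers, Prph rose by 1.04 in hyperplasia and by 1.22 in pheochromocytoma. Chat rose by 0.80 in hyperplasia and Snap25 by 0.83 in pheochromocytoma. Nefm, Nefl and Nefh of the same list were lower in both lesions without passing. They differed by -0.714, -0.134 and -0.043 in hyperplasia and by -0.605, -0.136 and -0.673 in pheochromocytoma. The median difference of the list was 0.31 in hyperplasia and 0.05 in pheochromocytoma. Of the 7 Schwann and sustentacular markers measured, Mbp and Sox10 rose in pheochromocytoma by 0.88 and 0.68 while S100b fell by 1.44, and 0 passed in hyperplasia. Of the 7 smooth muscle and pericyte markers, Rgs5 rose by 1.95 and Des fell by 0.53 in pheochromocytoma. The part of these cells, and of the chromaffin cells, in the channel differences was not tested. The array carries control probe sets for hexokinase, and their 3′ minus 5′ difference grows as RNA is degraded or labelled less completely. It was 2.16 to 3.30 in pheochromocytomas and 2.29 to 2.92 in old pools, against 1.21 to 1.63 in hyperplasias and 1.07 to 1.18 in young pools. The values separated the older from the younger arrays completely. The level of Xist, a transcript of female cells, went against the labelled sex on 6 arrays, 4 of hyperplasia and both young pools, so labelled sex was not used in the model. The mutated gene itself, Cdkn1b, had a bright probe set with a median of 11.7 in hyperplasias and 11.0 in young pools, and of 11.5 in pheochromocytomas and 10.6 in old pools; a dimmer probe set had medians of 6.01 in hyperplasias and 6.90 in young pools, and of 4.17 in pheochromocytomas and 4.14 in old pools. These values do not test the labels, since a changed protein need not change the transcript level. All comparisons are of bulk tissue, in which fewer cells of a type and less RNA per cell cannot be told apart.

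Of the 39 channel genes, 27 were on each of the 16 arrays above that array's lower quartile of probe sets, which fell between 4.71 and 4.93 on the log2 scale. At the other end, 6 genes lay below it on all 16 arrays. These were Cacnb4, a calcium channel beta subunit, the gamma-type genes Cacng1, Cacng6 and Cacng8, the brain sodium channel Scn1a, and the sodium beta subunit Scn4b. For them a difference in log2 signal was measured close to the lower end of the array's range. The other 6 genes fell below the quartile on some arrays. The spread of one gene over the 16 arrays was smallest for Scn1a, with a range of 0.39, and largest for the T-type calcium pore Cacna1h, with a range of 2.41.

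**Figure D1:**
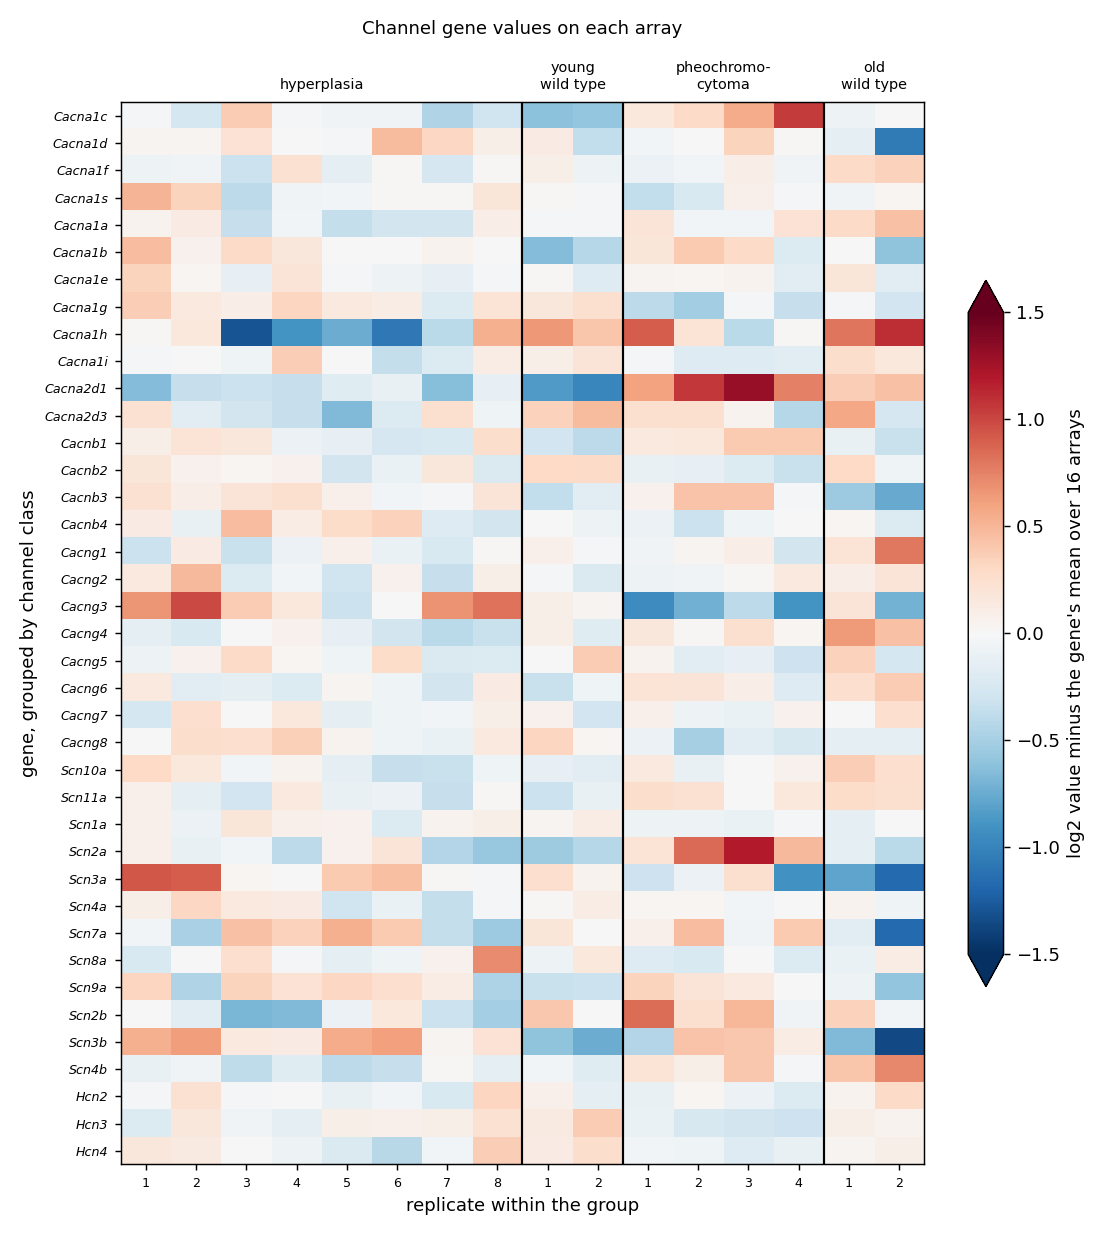
Log2 value of each of the 39 channel genes on each of the 16 arrays, minus that gene's mean over the arrays; rows are genes grouped by class, columns are arrays by group and replicate. Scn3b is above its mean on all 8 hyperplasias and below it on all 4 wild-type pools, and Cacna2d1 is above its mean on the 6 older arrays and below it on the 10 younger ones.

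In hyperplasia, 2 channel genes rose and 0 fell against young wild type: Scn3b, an auxiliary sodium channel subunit, and Cacna1b, the pore of the N-type calcium channel. Each passed limma's moderated test with a Benjamini-Hochberg adjusted p under 0.05 over all probe sets. The 2 called are 5.13% of the channel genes, beside 8.89% of all 14217 genes called in this comparison (5.42% higher and 3.47% lower). An unadjusted p under 0.05 was found for 9 of the 39, 23.1%, and for 25.8% of all genes. The median difference was 0.05 over the channel genes and -0.01 over all genes. The arrays of hyperplasia and young wild type did not overlap for 6 channel genes that were higher and 2 that were lower. Over all genes, 23.6% were without overlap, 12.7% higher and 10.9% lower.

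In pheochromocytoma, 5 channel genes rose and 2 fell against old wild type. Those that rose were Scn3b, the sodium pore Scn2a, the L-type calcium pore Cacna1d and the calcium channel beta subunits Cacnb3 and Cacnb1, and those that fell were Cacng4 and Cacng1. At 17.9% of the channel genes, the share called was near the 16.8% called among all genes (9.66% higher and 7.1% lower). A further 11 genes had an unadjusted p under 0.05 without passing, which makes 18 of 39, 46.2%, beside 33.2% of all genes. The median difference was -0.14 over the channel genes and 0.01 over all genes. Arrays were without overlap for 9 channel genes that were higher and 12 that were lower. Over all genes, 42.3% were without overlap, 22.7% higher and 19.6% lower. Without the 4 hyperplasias whose Xist level went against the label, the same fit called 0 channel genes in hyperplasia and 3 in pheochromocytoma, namely Cacnb3, Scn2a and Scn3b. With the cortex marker mean in the model it called 0 in either. That mean separated each lesion from its own pools without overlap, so the term shares the lesion difference. A call lost with it does not decide the part of cortex tissue, which was not tested. Scn3b was called in the same direction in both lesions, as were 4.96% of all genes.

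**Figure D2:**
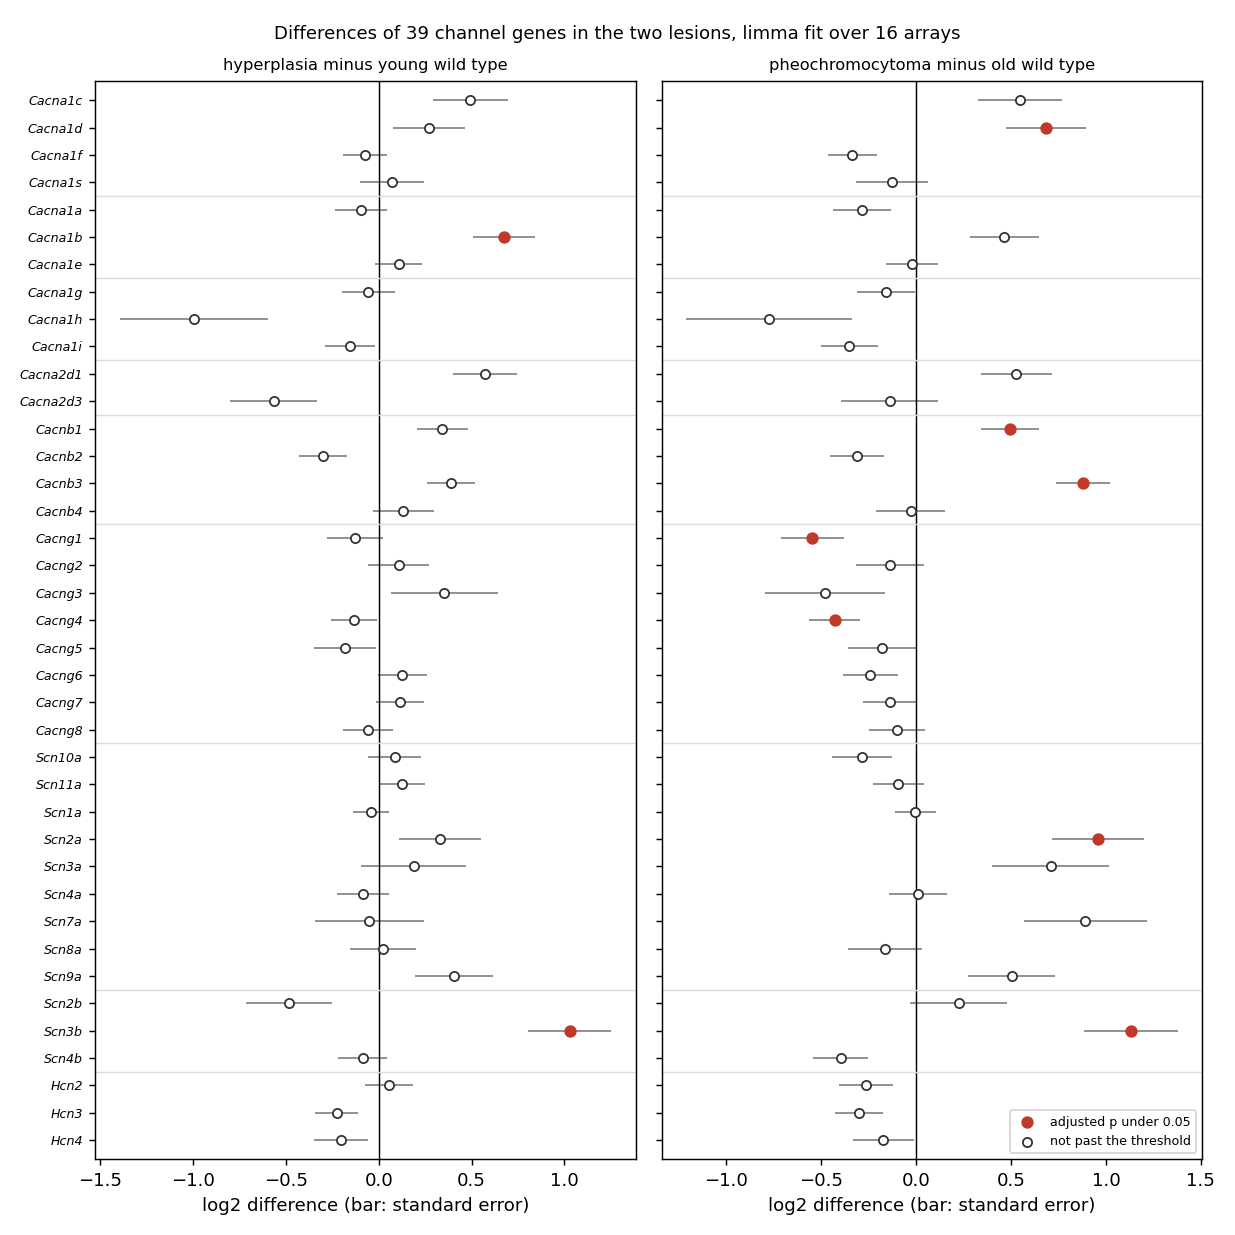
Log2 difference of each of the 39 channel genes in hyperplasia minus young wild type (left) and pheochromocytoma minus old wild type (right), with its standard error as a bar; filled points passed an adjusted p of 0.05. Scn3b stands at 1.03 and 1.13, and 37 genes in hyperplasia and 32 in pheochromocytoma did not pass.

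Promoter sequence was at hand for 27 of the 39 genes, from RefSeq on the GRCr8 assembly. The 250 bases before the annotated start are printed for Cacnb3 and Cacna1b, whose products can meet in one channel complex, and for Scn2a as a contrast, because all 3 passed the test in a lesion. Capitals mark GC boxes, the letters GGGCGG on either strand (CCGCCC when read on the other).
Cacnb3, chr7:131666301-131666550, plus strand: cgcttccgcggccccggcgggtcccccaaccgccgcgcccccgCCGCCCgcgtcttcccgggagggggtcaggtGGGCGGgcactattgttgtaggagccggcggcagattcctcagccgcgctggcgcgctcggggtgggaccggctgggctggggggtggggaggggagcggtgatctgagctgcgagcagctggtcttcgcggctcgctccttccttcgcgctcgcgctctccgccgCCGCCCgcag
Cacna1b, chr3:27944286-27944535, minus strand: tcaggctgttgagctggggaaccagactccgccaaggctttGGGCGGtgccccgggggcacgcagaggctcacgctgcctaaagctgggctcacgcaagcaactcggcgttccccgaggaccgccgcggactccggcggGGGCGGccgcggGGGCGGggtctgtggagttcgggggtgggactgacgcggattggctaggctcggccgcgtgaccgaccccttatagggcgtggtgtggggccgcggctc
Scn2a, chr3:70710706-70710955, plus strand: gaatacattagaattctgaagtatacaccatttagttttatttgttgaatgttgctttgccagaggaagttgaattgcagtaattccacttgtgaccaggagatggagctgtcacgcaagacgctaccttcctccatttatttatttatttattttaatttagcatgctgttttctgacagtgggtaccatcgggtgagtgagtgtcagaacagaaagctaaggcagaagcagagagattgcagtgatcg
The Cacnb3 and Cacna1b stretches held 3 GC boxes each and were 76.4% and 72.0% G or C, while that of Scn2a held 0 and was 39.6% G or C, beside a median of 51.2% over all 33469 promoters of the table. At least 1 GC box stood in the same window of 13 of the 27 channel genes and of 30.5% of all promoters. The cAMP response element TGACGTCA stood in 0 of the 27 and in 1.59% of all promoters. The E-box CAGCTG stood in 7 of the 27 and in 12.0% of all. These are matches of letters in a window and say nothing of a factor bound there.

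Scn3b encodes an auxiliary beta subunit that changes the gating of sodium channels and their delivery to the membrane. Its level was 10.64 at the lowest, 10.97 at the median and 11.22 at the highest of the 8 hyperplasias, against 9.99 and 9.85 in the young pools. Every hyperplasia lay above both pools. The difference was 1.03 ± 0.22 (log2, SE), 2.04-fold, with an adjusted p of 0.0115 by limma. In the 4 pheochromocytomas the level was 10.15, 11.03, 11.00 and 10.71, against 9.93 and 9.25 in the old pools. Tumour 1 lay near the higher of the old pools and the other tumours well above both. The difference there was 1.13 ± 0.25, 2.19-fold, with a limma adjusted p of 0.00704. A second, dimmer probe set of the gene gave 1.06 ± 0.26 in hyperplasia and 1.10 ± 0.28 in pheochromocytoma, with limma adjusted p-values of 0.0205 and 0.0178. The hyperplasia call was lost without young pool 1 (1.10 ± 0.31, adjusted p = 0.0705), without young pool 2 (0.96 ± 0.31, adjusted p = 0.143) and without the 4 hyperplasias whose Xist level went against the label (0.80 ± 0.23, adjusted p = 0.0997). The tumour call was lost without old pool 2 (0.79 ± 0.30, adjusted p = 0.191). The tumour call was also lost when only the tumours and old pools were fitted. With the mean of the cortex markers in the model both differences were 0.80, with SEs of 0.28 and 0.35 and adjusted p-values of 0.216 and 0.379.

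The other sodium channel beta subunits did not pass in either lesion. Scn2b and Scn4b, which bind the pore and shape its gating, differed by -0.48 ± 0.23 and -0.09 ± 0.13 in hyperplasia and by 0.22 ± 0.26 and -0.40 ± 0.14 in pheochromocytoma. Scn4b was among the genes below the first quartile on all arrays.

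**Figure D3:**
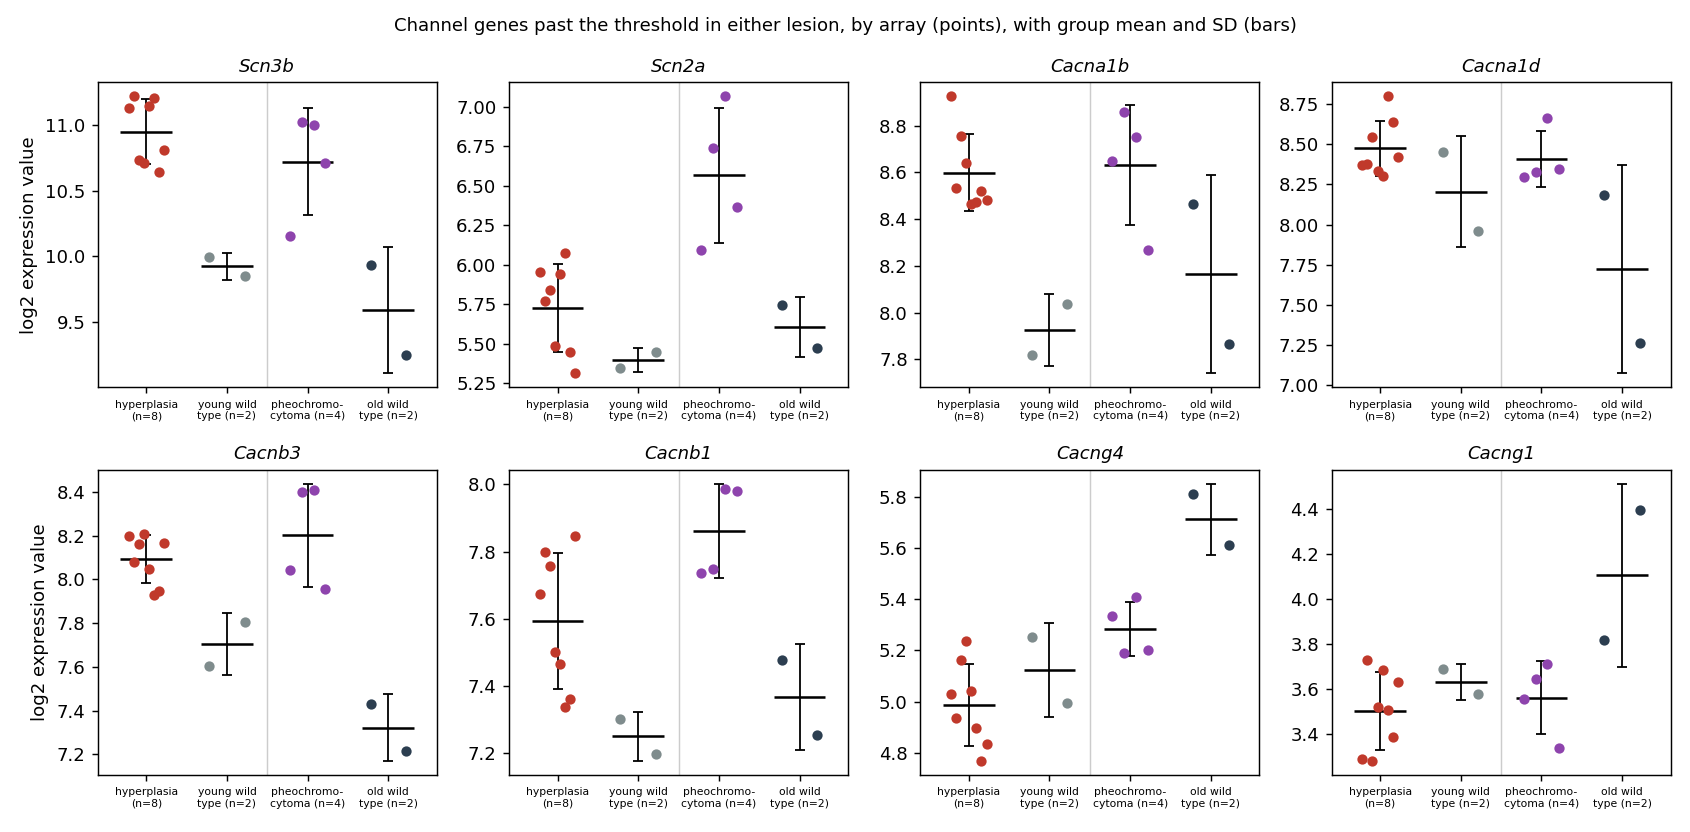
Log2 value on each array of the 8 channel genes that passed the threshold in hyperplasia or pheochromocytoma, with each group's mean (long bar) and SD (error bar); lesions stand to the left of their own wild-type pools. Scn3b reaches at least 10.64 in every hyperplasia against at most 9.99 in the young pools, and Cacnb3 at least 7.95 in every tumour against at most 7.43 in the old pools.

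Among the 9 sodium pores, Scn2a, a sodium channel of nerve axons, rose in pheochromocytoma. Its level was 6.09, 6.74, 7.07 and 6.37 in the tumours, against 5.74 and 5.48 in the old pools. All 4 tumours lay above both pools, with tumour 3 the highest. The difference was 0.96 ± 0.24, 1.94-fold, with a limma adjusted p of 0.0158. In hyperplasia the level was 5.31, 5.81 and 6.07 at the lowest, median and highest array, against 5.35 and 5.45 in the young pools, and those groups overlapped. The difference of 0.33 ± 0.22 did not pass there (limma adjusted p = 0.405). Without old pool 2 the tumour difference was 0.82 ± 0.32 with an adjusted p of 0.205. With the cortex marker mean in the model it was 0.58 ± 0.34 (adjusted p = 0.522), and with only the tumours and old pools fitted 0.96 ± 0.26 (adjusted p = 0.0746).

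No other sodium pore passed in either lesion. Their differences ran from -0.08 to 0.41 in hyperplasia and from -0.28 to 0.89 in pheochromocytoma. The upper ends were Scn9a, a sodium channel of peripheral neurons, at 0.41 ± 0.21 in hyperplasia, and Scn7a, a relative of the sodium channels that senses extracellular sodium, at 0.89 ± 0.32 in tumours (limma adjusted p-values of 0.266 and 0.0759).

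Cacna1b forms the N-type calcium channel, one of the channels through which calcium drives secretion in chromaffin cells. Its level was 8.47, 8.53 and 8.93 at the lowest, median and highest hyperplasia, against 7.82 and 8.04 in the young pools. Every hyperplasia lay above both pools. The difference was 0.67 ± 0.17, 1.59-fold, with a limma adjusted p of 0.0225. The tumours had 8.65, 8.86, 8.75 and 8.27, against 8.47 and 7.86 in the old pools. Tumour 4 fell between the pools, so the groups overlapped, and the difference of 0.46 ± 0.18 did not pass (limma adjusted p = 0.102). A second probe set gave 0.64 ± 0.14 (adjusted p = 0.0126) in hyperplasia and 0.33 ± 0.16 (adjusted p = 0.178) in pheochromocytoma by the same fit. Without young pool 1 the hyperplasia difference was 0.56 ± 0.23 with an adjusted p of 0.205, and without young pool 2 it was 0.78 ± 0.23 with an adjusted p of 0.102. Without the 4 hyperplasias whose Xist level went against the label it was 0.67 ± 0.19 with an adjusted p of 0.0902. The other pores of this class, Cacna1a of the P/Q type and Cacna1e of the R type, differed by at most 0.28 in size in either lesion and did not pass.

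Among the 4 L-type pores, Cacna1d, whose channel opens at low voltages and takes part in chromaffin cell pacemaking, rose in pheochromocytoma. Its level was 8.29, 8.32, 8.66 and 8.35 in the tumours, against 8.18 and 7.26 in the old pools. The 4 tumours were only slightly above old pool 1 and far above old pool 2. The difference was 0.68 ± 0.21, 1.61-fold, with a limma adjusted p of 0.0418. The other probe sets of Cacna1d differed by -0.10 ± 0.11 and 0.13 ± 0.17 (limma adjusted p-values of 0.580 and 0.670). Those were dimmer, with means over the arrays of 5.85 and 4.50 against 8.33. The dimmest lay below the lower quartile on all 16 arrays. The mean of all probe sets of the gene differed by 0.24 ± 0.11 (limma adjusted p = 0.150). The call was also lost with the cortex marker mean in the model, at 0.47 ± 0.31 (adjusted p = 0.580). Without old pool 2 the difference was 0.23 ± 0.21 (adjusted p = 0.662), and without old pool 1 it was 1.14 ± 0.21 (adjusted p = 0.00227). In hyperplasia the difference was 0.27 ± 0.19 and did not pass (limma adjusted p = 0.449). Cacna1c, Cacna1f and Cacna1s, the other L-type pores, did not pass in either lesion.

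None of the 3 T-type pores, which carry transient calcium currents near the resting potential, passed. Cacna1h had the smallest p of them over both lesions. Its level was 5.90, 6.62 and 7.73 at the lowest, median and highest hyperplasia, against 7.85 and 7.61 in the young pools. In the tumours it was 8.10, 7.41, 6.79 and 7.21, against 7.99 and 8.31 in the old pools. Most lesion arrays were low, but hyperplasia 8 and tumour 1 lay within the range of their pools. The differences were -0.997 ± 0.40 and -0.77 ± 0.44, with limma adjusted p-values of 0.146 and 0.254. With the cortex marker mean in the model they were -0.23 and 0.35.

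Calcium channel beta subunits bind the pore from inside the cell and bring it to the membrane. Cacnb3 rose in pheochromocytoma, with 8.04, 8.40, 8.41 and 7.95 in the tumours against 7.43 and 7.21 in the old pools. All tumours lay above both pools with a clear gap. The difference was 0.88 ± 0.14, 1.84-fold, with a limma adjusted p of 0.00117. It passed in each of the 16 fits that left out 1 array. With the cortex marker mean in the model it was 0.85 ± 0.21 with an adjusted p of 0.114. In hyperplasia the level was 7.93, 8.12 and 8.21 at the lowest, median and highest array, against 7.60 and 7.80 in the young pools. Those groups did not overlap either, but the difference of 0.39 ± 0.13 did not pass (limma adjusted p = 0.0753).

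Cacnb1, the beta subunit of the muscle calcium channel, had 7.74, 7.75, 7.99 and 7.98 in the tumours against 7.48 and 7.25 in the old pools. The tumours lay above both pools, and the difference was 0.50 ± 0.15, 1.41-fold, with a limma adjusted p of 0.0402. A dimmer probe set of Cacnb1 pointed the other way at -0.23 without passing (limma adjusted p = 0.148). Without old pool 2 the difference was 0.38 ± 0.20 with an adjusted p of 0.353. Besides leaving out single arrays, 13 alternative settings were fitted, and 3 of them kept the tumour call. It was lost with labelled sex, after quantile normalization, with the cortex marker mean and with the mean of all probe sets of the gene, among others. The tumour difference ran from 0.14 to 0.61 over all settings. In hyperplasia the difference was 0.34 ± 0.14 (limma adjusted p = 0.152). Cacnb2 and Cacnb4, the remaining beta subunits, did not pass.

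The alpha2delta subunit Cacna2d1, the binding site of gabapentin, was higher without overlap in both lesions but did not pass. It had 9.01, 9.32 and 9.54 at the lowest, median and highest hyperplasia, against 8.81 and 8.68 in the young pools. The tumours had 10.26, 10.72, 10.96 and 10.41, against 10.02 and 10.10 in the old pools. The differences were 0.57 ± 0.17 and 0.53 ± 0.19, with limma adjusted p-values of 0.0516 and 0.0686. Both groups of older arrays were far brighter for this gene than the younger ones. Cacna2d3, the other alpha2delta gene, did not pass.

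The gamma genes form a mixed family: some are subunits of the muscle calcium channel, others are partners of AMPA-type glutamate receptors. Cacng4, one of the receptor partners, fell in pheochromocytoma, with 5.34, 5.19, 5.41 and 5.20 in the tumours against 5.81 and 5.61 in the old pools. Cacng1, the muscle channel subunit, had 3.55, 3.64, 3.71 and 3.33 in the tumours against 3.82 and 4.40 in the old pools. The tumours lay below the pools for both genes. For Cacng1 the highest tumour, at 3.71, was close to old pool 1 at 3.82, and old pool 2 lay far above. The differences were -0.43 ± 0.13, 1.35-fold lower, for Cacng4 and -0.55 ± 0.17, 1.46-fold lower, for Cacng1, with limma adjusted p-values of 0.044 and 0.0383. Without old pool 2, Cacng4 differed by -0.53 ± 0.17 and Cacng1 by -0.26 ± 0.19. Leaving out tumour 1, 2 or 4 lost the call of either gene. Of the alternative settings besides single arrays, 7 of 13 kept the Cacng4 call and 4 of 12 the Cacng1 call. Neither gene passed in hyperplasia, where they differed by -0.13 ± 0.12 and -0.13 ± 0.15. The other 6 gamma genes passed in neither lesion.

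None of the 3 HCN genes passed. Hcn3 had 6.36, 6.22, 6.18 and 6.15 in the tumours against 6.54 and 6.51 in the old pools, and the tumours were all lower. The difference was -0.30 ± 0.13 (limma adjusted p = 0.125), and it was -0.23 ± 0.11 in hyperplasia (limma adjusted p = 0.258). Hcn2 and Hcn4 were also lower without overlap in the tumours, by 0.26 ± 0.14 and 0.17 ± 0.16 on the log2 scale, and did not pass.

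Whether a gene differed more in one lesion than in the other was tested as the difference of both effects in the same limma fit. It passed for 0 of the 39 channel genes, and for 0.0141% of all genes. At an unadjusted p under 0.05 stood 2 channel genes, 5.13%, beside 10.8% of all genes. They were Cacnb3 and Scn7a, which are named here after their values were seen. Their effects in pheochromocytoma exceeded those in hyperplasia by 0.49 and 0.94. The effects of Scn3b, Cacna1b and Scn2a, each against its own pools, were thus not shown to be unequal. This holds although Cacna1b was called in hyperplasia alone and Scn2a in pheochromocytoma alone. The levels of the lesions are compared directly below, where Scn2a was higher in the tumours by 0.84 ± 0.17 (limma adjusted p = 0.000964).

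For 11 of the 39 genes the array held more than 1 probe set, and these probe sets did not always move together. All probe sets of a gene had 1 direction for 8 of the 11 in hyperplasia and for 5 of the 11 in pheochromocytoma. Among the 16 probe sets that were not the brightest of their gene, 3 passed in hyperplasia and 2 in pheochromocytoma, where 7.4% and 14.3% of all probe sets passed. Those were the second ones of Scn3b in both lesions, of Cacna1b in hyperplasia, and of Cacng2 in both. Cacng2, a partner of glutamate receptors, is named here after its values were seen. Its brightest probe set differed by 0.11 ± 0.17 in hyperplasia and -0.14 ± 0.18 in pheochromocytoma. The dimmer one had 5.84, 5.88, 6.02 and 6.21 in the tumours against 4.93 and 5.05 in the old pools, well apart. It differed by 0.99 ± 0.16 there and by 0.57 ± 0.15 in hyperplasia, with limma adjusted p-values of 0.00118 and 0.0253.

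**Figure D4:**
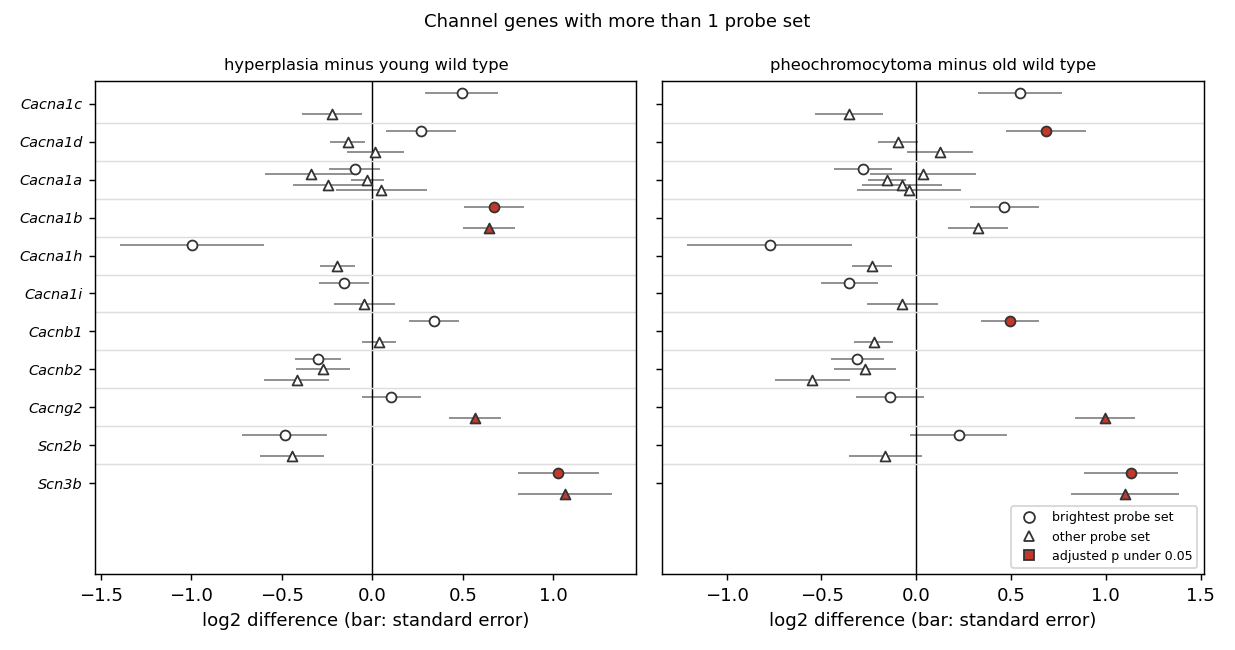
Log2 difference of every probe set of the 11 channel genes with more than 1, with its standard error, in hyperplasia minus young wild type (left) and pheochromocytoma minus old wild type (right); circles are the brightest probe set of a gene, triangles the others, filled symbols passed an adjusted p of 0.05. Both Scn3b probe sets stand beyond 1 on both sides, while the dimmer Cacng2 probe set at 0.57 and 0.99 stands apart from the brighter one at 0.11 and -0.14.

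The pheochromocytomas were also set against the hyperplasias, both of mutant rats, which differ in stage and in age together. Of the 39 channel genes, 7 were higher and 5 lower in the tumours, 30.8%, beside 35.8% of all genes, 15.7% higher and 20.2% lower (limma, adjusted p under 0.05). The wild-type pools differ in age without a lesion, and also in the hexokinase signal. Between them 5 channel genes were higher and 1 lower in the old pools, 15.4%, beside 21.5% of all genes, 8.58% higher and 12.9% lower. The hexokinase signal difference, given above, moved with both comparisons. It separates the older from the younger arrays completely, so its part cannot be told apart from age or stage. A call kept or lost with this term does not decide between them. With it in the model 2 channel genes passed between the lesions, Cacna1g and Cacng3, and 0 between the pools, where limma called 6 without it. Between the pools 11 of the 39 had an unadjusted p under 0.05 without the term, 28.2%, beside 34.2% of all genes. Without the 4 hyperplasias whose Xist level went against the label, 8 channel genes passed between the lesions and 5 between the pools. The count between the pools was 2 without old pool 2 or without young pool 2, and 3 without young pool 1.

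Cacna2d1 had the largest difference in both. The tumours exceeded the hyperplasias by 1.27 ± 0.13 (limma adjusted p = 1.35e-06), and the old pools exceeded the young by 1.32 ± 0.21 (limma adjusted p = 0.000419). No older array overlapped a younger one in either. With the hexokinase term in the model the differences were 1.24 ± 0.34 and 1.28 ± 0.39, with adjusted p-values of 0.0608 and 0.0875.

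Cacng3, a partner of glutamate receptors, was lower in the tumours, with 5.93, 6.14, 6.47 and 5.97 against 6.55, 7.39 and 7.85 at the lowest, median and highest hyperplasia. The groups did not overlap, and the difference was -1.16 ± 0.22, 2.23-fold lower, with a limma adjusted p of 0.000592. With the hexokinase term it was -2.02 ± 0.52 (adjusted p = 0.0454). Between the pools, without that term, it was -0.33 ± 0.36 and did not pass. The T-type pore Cacna1g was lower in the tumours by 0.47 ± 0.11 on the log2 scale (limma adjusted p = 0.00257), with some overlap, by 1.03 ± 0.23 with the hexokinase term (adjusted p = 0.0250), and by 0.37 ± 0.18 in old against young pools, without passing.

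Other genes were called in both comparisons and in the same direction. Scn3a, a sodium pore found in rat chromaffin cells, was lower by 0.61 ± 0.22 in tumours than in hyperplasias and by 1.13 ± 0.36 in old than in young pools (limma adjusted p-values of 0.0346 and 0.0306). Cacng4 differed by 0.30 ± 0.10 and 0.59 ± 0.16, Scn4b by 0.37 ± 0.10 and 0.68 ± 0.17, and the sensory sodium pore Scn11a by 0.26 ± 0.10 and 0.47 ± 0.16. Scn4b lay below the lower quartile on all 16 arrays and Scn11a on 4. Without the 4 hyperplasias named above, the difference of Scn3a between the lesions was -0.28 (adjusted p = 0.302). That setting left Cacng4 at 0.28, Scn11a at 0.28 and Hcn3 at -0.26 between the lesions, with adjusted p-values of 0.102, 0.0976 and 0.0776. For Cacng4, Scn4b and Scn11a the limma adjusted p-values were 0.0204, 0.00844 and 0.0427 between the lesions and 0.0122, 0.00793 and 0.0374 between the pools.

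Called between the lesions but not between the pools were Scn2a, higher by 0.84 ± 0.17, Scn2b, higher by 0.66 ± 0.18, Cacna1c, an L-type pore, higher by 0.61 ± 0.16, and Cacng8 and Hcn3, lower by 0.36 ± 0.10 and 0.26 ± 0.09. Their differences between old and young pools were 0.21, -0.05, 0.56, -0.32 and -0.19 in that order, and whether the pairs of differences are unequal is the test of both effects given above, which none passed. Only Scn2a of these was without overlap between the lesions. Cacng8 lay below the lower quartile on all 16 arrays. Cacng6, a gamma subunit of low signal, was called between the pools alone, at 0.51 ± 0.17. The second Scn2b probe set was at -0.34 ± 0.14 between the lesions and that of Cacna1c at -0.33 ± 0.13, opposite to their brighter ones, and neither passed. Both were dim: that of Scn2b lay below the lower quartile on all 16 arrays and that of Cacna1c on 11.

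**Figure D5:**
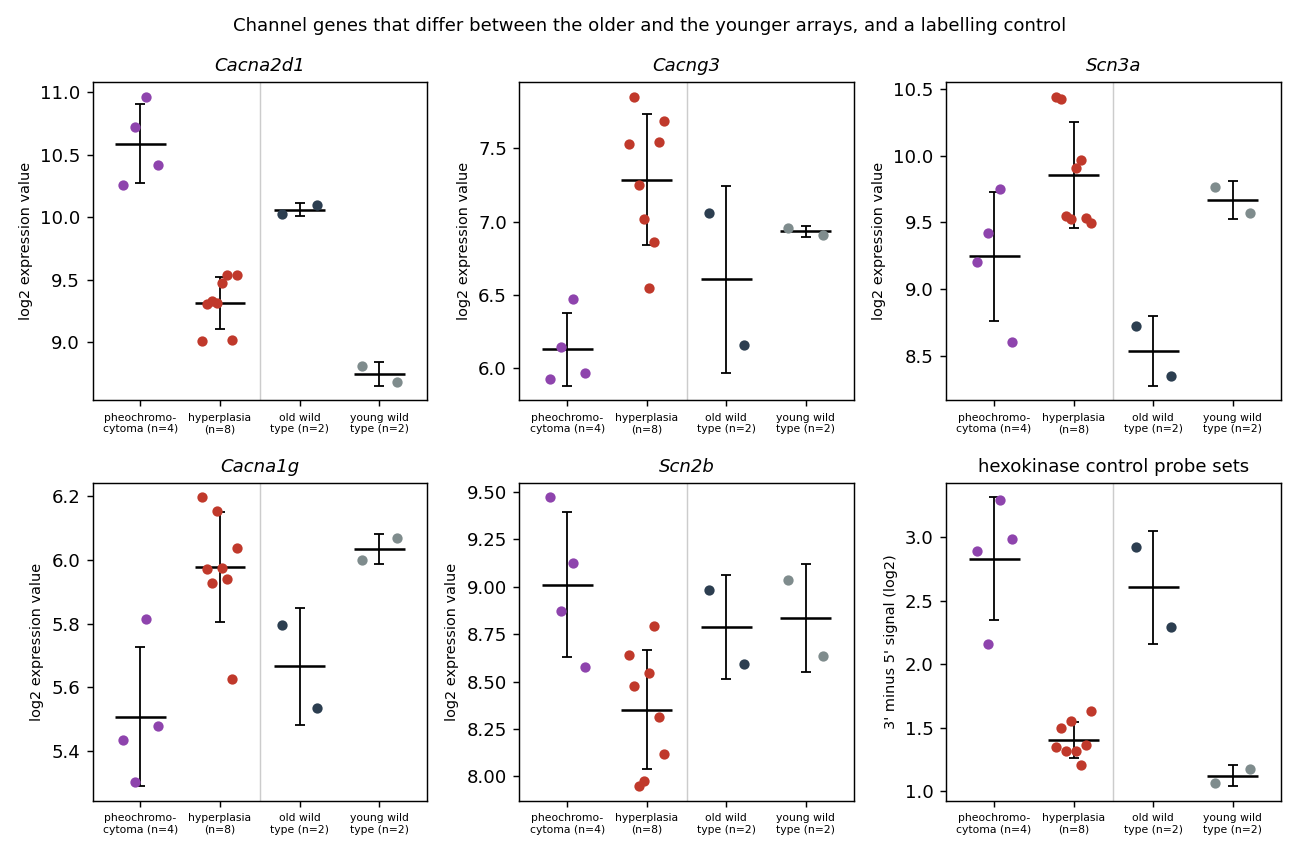
Log2 value on each array of 5 channel genes that differ between tumours and hyperplasias, with group means (long bars) and SDs, and in the last panel the hexokinase 3′ minus 5′ difference; tumours stand left of hyperplasias and old pools left of young pools. Cacna2d1 is at least 10.02 on every older array and at most 9.54 on every younger one, and the hexokinase difference is at least 2.16 and at most 1.63 on the same arrays.

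Genes that work beside the channels were taken from a list of 49, of which 44 were measured. They comprise regulators of channel traffic, calcium stores and pumps, store-operated channels, sodium channel partners and sodium pumps. In hyperplasia 3 rose and 1 fell, 9.09%, and in pheochromocytoma 12 rose and 1 fell, 29.5%, beside the 8.89% and 16.8% of all genes. The median difference over the 44 was 0.16 in hyperplasia and 0.12 in pheochromocytoma. The calls of this list were not followed through the alternative settings.

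Called in both lesions were Orai1 and Orai2, pores of store-operated calcium entry, Atp2b2, a pump that moves calcium out of the cell, and Fgf13, a binding partner of sodium channels. Orai1 rose by 0.66 ± 0.12 in hyperplasia and by 0.81 ± 0.14 in pheochromocytoma, and Orai2 by 0.54 ± 0.15 and 0.78 ± 0.16. Atp2b2 rose by 0.54 ± 0.11 and 0.98 ± 0.12. Fgf13 fell, with differences of -1.48 ± 0.42 and -1.77 ± 0.46 and limma adjusted p-values of 0.0444 and 0.0193, while those of the other three genes lay between 0.00023 and 0.0344.

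Called in pheochromocytoma and not in hyperplasia were Pex5l, a regulator of HCN channel traffic, at 1.22 ± 0.13 (limma adjusted p = 8.3e-05), Stac, which binds calcium channels, at 1.15 ± 0.27, and Rimbp2, which ties calcium channels to release sites, at 1.09 ± 0.18. The membrane anchors Ank2 and Ank3 rose by 1.04 ± 0.23 and 0.69 ± 0.15. Unc79, a subunit of the sodium leak channel complex, rose by 0.89 ± 0.18, and the calcium release channels Ryr2 and Ryr3 by 0.80 ± 0.24 and 0.73 ± 0.20. The limma adjusted p-values of these 8 genes ran up to 0.0378. Ryr3 was measured near the lower end of the signal. Its group means were 3.32 to 4.05, below the arrays' lower quartile of 4.71 to 4.93. The gene with the smallest change of the 13 is counted without its values. For the whole list the difference of both effects passed limma for 0 of 44 genes, with 7 at an unadjusted p under 0.05, beside 1531 of all 14217 genes.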

How the data were processed

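The data are 16 one-colour Affymetrix rat expression arrays of adrenal medulla tissue. Per the labels, RNA was extracted with Trizol and RNeasy and amplified with the MessageAmp II-Biotin kit; per the submitters' processing notes, the authors normalised with RMA, whose version and settings are not given in the sources used here. The deposited values are log2 intensities of 31099 probe sets. Removing 57 control probe sets left 31042, of which 20826 had 1 gene symbol in the platform annotation, 436 had several and 9780 had none; all 39 members were found in the RefSeq gene table under the same symbol. limma 3.58.1 in R 4.3.3 fitted 4 group means to all 16 arrays (12 residual degrees of freedom, median prior 3.98), and p-values were adjusted by Benjamini-Hochberg over 31042 probe sets, two-sided, with a threshold of 0.05. The smallest p an exact permutation test allows is 0.0222 for hyperplasia against young wild type and 0.0667 for pheochromocytoma against old wild type, so it was not used for calls. The wild-type arms of 2 pools each limit the precision of both lesion comparisons. Most titles call the arrays biological replicates, and the young pools carry a pool number alone; no 2 arrays were near-identical (smallest median absolute difference 0.127). Array correlations were 0.981 to 0.996 within groups. The replicate numbers of the labels did not pair samples across groups (correlation of deviations -0.179 to 0.212). Genes were named where they passed a comparison; in a class with no call, the gene with the smallest p was named, and of the partner list at most 12 with the largest changes. Alternatives covered sex, Xist, cortex marker and hexokinase covariates, normalization, filters, probe set choice, array weights, a replicate block and leaving out each array. The fit was tested on simulated data. The members, gene lists and tests were chosen with earlier results of these data known.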

Additional observations from a re-analysis of the deposited data

Results flagged for a closer look

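In a group of 4 to 10 arrays, a single array was looked for whose gap to the nearest other exceeded Dixon's critical value, as a share of the group's range. Of 78 groups of the channel genes tested, 3 held such an array, and chance gives about 1 in 20. Cacna1d was at 8.66 in pheochromocytoma replicate 3, with the other tumours between 8.29 and 8.35. Cacna1e was at 5.32 in pheochromocytoma replicate 4, with the other tumours between 5.51 and 5.54. Cacna1g was at 5.62 in hyperplasia replicate 7, with the other hyperplasias between 5.93 and 6.20.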

How the results depend on the processing

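Each wild-type arm had 2 pools, and 6 channel genes, Cacng1 among them, lay below the lower quartile of signal on all arrays. In hyperplasia minus young wild type the count was 2. It was 0 without the 4 hyperplasias whose Xist level goes against the label, 0 with the replicate block, 0 with the cortex marker mean as covariate, 4 with only the groups compared, and 0 to 3 when 1 array was left out (0 without either young pool). In pheochromocytoma minus old wild type the count was 7. It was 4 with labelled sex, 3 without those 4 hyperplasias, 1 with only the groups compared, 4 after quantile normalization, 3 with array weights, 1 with the replicate block, 0 with the cortex marker mean, 4 with the hexokinase difference, and 1 to 8 when 1 array was left out (1 without old pool 2, 8 without old pool 1, 4 without tumour 2 or tumour 4). In pheochromocytoma minus hyperplasia the count of 12 was 2 with the hexokinase difference and 9 to 14 with 1 array left out. In old minus young wild type the count of 6 was 2 with only the groups compared, 3 without the 30% dimmest probe sets, 3 after quantile normalization, 0 with the hexokinase difference, and 2 to 6 with 1 array left out (2 without old pool 2 or young pool 2, 3 without young pool 1). The difference of effects stayed at 0 in every setting. Over all probe sets, 2296 passed in hyperplasia and 4425 in pheochromocytoma. These counts were 689 in hyperplasia without the 4 arrays, 1915 in pheochromocytoma with only the groups compared, 556 and 1593 with the replicate block, 301 and 67 with the cortex marker mean, 1393 and 2407 with the mean of a gene's probe sets over fewer features, and 564 to 2687 and 596 to 4781 with 1 array left out. Of the 4425, 2579 were higher and 1846 lower; after centring each array on its median, 1938 were higher and 2416 lower. With the cortex marker mean as covariate, 2 differences that had not passed changed sign: Cacng1 in hyperplasia to 0.13 and Cacna1h in pheochromocytoma to 0.35. The hexokinase setting was chosen after seeing the data. Its term separates the older from the younger arrays, and the cortex marker mean separates each lesion from its own pools. A call kept or lost with either term does not decide its part. The replicate numbers are names only, so a call lost with the block is not a weaker effect. The cause of these changes was not tested.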

Other observations

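For Cacnb2 and Cacna1a, 1 probe set passed between the older and the younger arrays while the others of the same gene did not. These were picked after their values were seen. A dimmer probe set of the calcium channel beta subunit Cacnb2 had 4.12, 4.72, 4.99 and 4.35 in the pheochromocytomas, against 6.19 at the lowest and 6.68 at the highest hyperplasia. The same probe set had 5.26 and 4.93 in the old pools, against 6.94 and 6.86 in the young pools. No older array overlapped a younger one. Its differences were -1.94 ± 0.14 between the lesions and -1.81 ± 0.23 between the pools, with limma adjusted p-values of 2.73e-08 and 4.5e-05. The other Cacnb2 probe sets differed between the lesions by -0.18 ± 0.10 and 0.22 ± 0.12 and did not pass. A dimmer probe set of the P/Q-type pore Cacna1a differed by -0.76 ± 0.20 between the lesions and by -1.13 ± 0.32 between the pools (limma adjusted p-values of 0.0059 and 0.0191), while the others of that gene did not pass in either. The levels of that Cacna1a probe set overlapped between the lesions. The hexokinase 3′ minus 5′ difference separates the older from the younger arrays, as the Cacnb2 probe set does, and its part in these values was not tested.

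The brightest and the second Scn3b probe set gave like differences in each lesion, but between the lesions the second was at 0.83 ± 0.20 (limma adjusted p = 0.0036) and the brightest at -0.23 ± 0.17 (limma adjusted p = 0.315). For Cacna1b the second probe set was lower in pheochromocytoma than in hyperplasia by 0.38 ± 0.11 on the log2 scale (limma adjusted p = 0.0123), and the brightest was at 0.03 ± 0.13.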
